A study of Homo sapiens with 8 samples.

Results

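Endoderm and mesoderm cells grown from the same human embryonic stem cell line, H1, were compared directly with each other. The comparison used 4 of the 8 long-read RNA libraries of the series, chosen by their labelled cell type: 2 endoderm and 2 mesoderm repeats. The other libraries were 2 of undifferentiated cells (hPSC) and 2 of ectoderm. They entered only the shared estimate of the spread, the count filter and the scaling, and are quoted where they give a reference level. Endoderm cells were collected on day 5 from RPMI medium with 0.5% serum, WNT3A and 100 ng/ml Activin A. Mesoderm cells were collected on day 5 from DMEM/F12 medium with 0.5% serum, 100 ng/ml BMP4, 100 ng/ml VEGF and 10 ng/ml bFGF, with 100 ng/ml Activin A for the opening 24 hours only. The base medium, every added factor except Activin A and the time in Activin A therefore differed together, and their parts in a difference cannot be told apart. Both groups are unsorted cultures of 1 cell line. The labels do not say whether the 2 repeats of a group came from separate cultures, so p-values measure the spread between these libraries, which may be technical. In such bulk samples fewer cells of a type and less RNA per cell cannot be told apart.

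Both layers arise in the embryo from the primitive streak, where the doses of NODAL and BMP signals steer cells apart. NODAL, and Activin A in its place in culture, binds activin receptors with the coreceptor TDGF1 and acts through SMAD2, SMAD3 and FOXH1 to turn on endoderm genes and its own inhibitors LEFTY1, LEFTY2 and CER1. BMP4 acts through SMAD1, SMAD5 and SMAD9 on ID and MSX genes, and is used in culture to make mesoderm, but also amnion and trophoblast.

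The endoderm libraries held 585558 and 586183 reads and the mesoderm libraries 531106 and 503840. A count of 0 allows up to 3 counts, which is 5.12 CPM (a count divided by the total of its library and scaled to a common size) in each endoderm library and 5.65 and 5.95 CPM in mesoderm. Such limits allow for counting error alone. Pearson's r of log2 CPM across genes, which are not independent replicates, was 0.934 between the endoderm repeats, 0.939 between the mesoderm repeats and 0.539 to 0.579 between the groups. The endoderm reads were assigned to shorter assembled transcripts, with a mean of 3073 and 2975 nt against 3765 and 3840 nt in mesoderm. The lengths of the reads themselves were not measured. Mitochondrial transcripts took 2.68% and 3.46% of the endoderm counts and 1.20% and 1.32% of the mesoderm counts. The 50 most abundant transcripts took 21.9% and 22.9% in endoderm and 13.5% and 14.2% in mesoderm. What part these differences have in the results was tested for transcript length alone, by removing a length trend.

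Of 10525 genes with enough counts to be tested, 4976 differed between endoderm and mesoderm at an adjusted p under 0.05 in edgeR's quasi-likelihood test, or 47.3%. Of these, 2436 were higher in endoderm (23.1% of the tested genes) and 2540 were higher in mesoderm (24.1%), and 4728 differed at least 2-fold. A count of called genes in any list below is to be read against these shares. Listed genes at or near 0 in a group could pass the count filter only through the groups where they are high. The list counts and medians are therefore descriptions. Fold changes are log2 values of endoderm over mesoderm, so a positive value is higher in endoderm. TMM scaling raised endoderm over mesoderm by 0.565 on the log2 scale compared with the CPM levels. With library totals alone the median of all tested genes moved from -0.16 to -0.72, and 1472 genes were then higher in endoderm and 3820 higher in mesoderm. With a length trend removed the median was 0.05. None of the 214 called genes followed through the alternatives changed its direction in any of them.

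**Figure D1:**
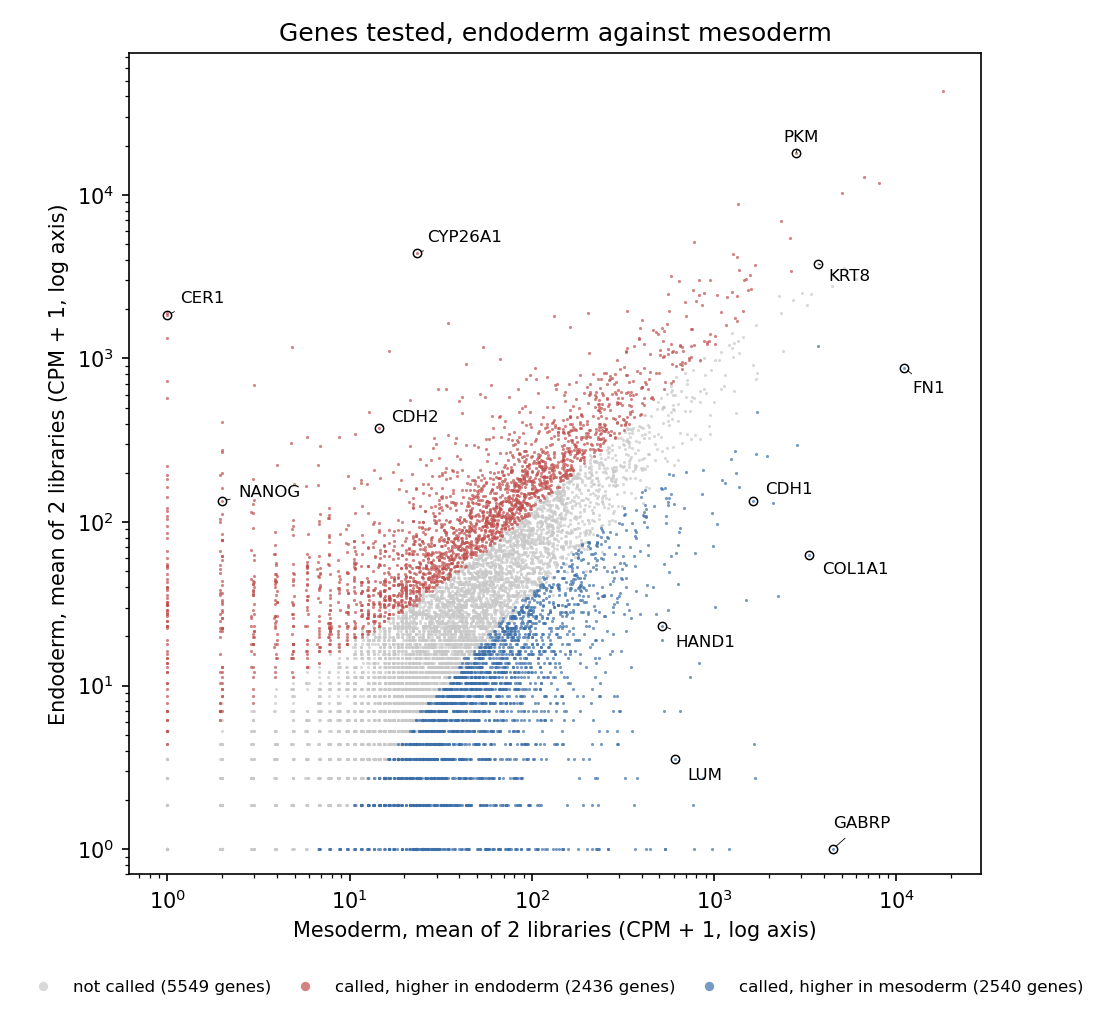
Mean CPM + 1 of the 2 mesoderm libraries (horizontal, log axis) and the 2 endoderm libraries (vertical, log axis) for each of the 10525 genes tested, with the 2436 genes called higher in endoderm in red, the 2540 called higher in mesoderm in blue and the 5549 not called in grey. CER1 and NANOG lie on the endoderm side, with mesoderm means of 0 and 0.992 CPM, and HAND1 and LUM on the mesoderm side.

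The marker genes separated the groups as labelled. CER1, a secreted inhibitor of NODAL and BMP that is made by anterior endoderm (ENSG00000147869.5, GRCh38 chromosome 9, 14719724 to 14722717, GENCODE 29), had 1663 and 2015 CPM in endoderm and 0 counts in both mesoderm libraries. It was at least 309-fold higher in endoderm (adjusted p 9.52e-08), and it had 0 counts in the hPSC and ectoderm libraries as well. NANOG, a transcription factor of pluripotent cells that persists in early endoderm (chromosome 12, 7787794 to 7799141), had 157 and 111 CPM in endoderm and 0 and 1.99 CPM in mesoderm. Its ratio was 139-fold, with a 95% counting interval of 24.5 to 5512 (adjusted p 3.53e-06). HAND1, a transcription factor of lateral and extraembryonic mesoderm and of trophoblast (chromosome 5, 154474972 to 154478264), had 34.2 and 10.2 CPM in endoderm and 495 and 544 CPM in mesoderm, a log2 difference of -3.99 ± 0.44 (SE, adjusted p 1.28e-05). LUM, the matrix proteoglycan lumican (chromosome 12, 91102629 to 91111831), had 3.42 and 1.71 CPM in endoderm against 548 and 663 CPM in mesoderm, 236-fold higher there (80.3 to 1147, adjusted p 3.26e-07). For none of the 4 genes did the groups overlap, but the share of all tested genes of which this is so was not counted. NANOG has pseudogenes of near-identical sequence, and how shared reads were counted is not stated.

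Ranked by the fitted difference among called genes that reached 10 CPM in each library of the higher side, the 12 genes furthest toward endoderm included LEFTY1, CER1, FGF17, LEFTY2, MIR302CHG, PCSK2, SOX17, CALB1, GATA4, EOMES and PPIAP46. All 12 had 0 counts in both mesoderm libraries, so their folds are lower bounds and do not rank them. FGF17, a secreted growth factor, had 1353 and 1324 CPM in endoderm, at least 225-fold higher (adjusted p 3.6e-08). MIR302CHG, the host transcript of the miR-302 cluster of pluripotent cells (chromosome 4, 112646476 to 112650051), had 620 and 524 CPM in endoderm, at least 96.0-fold higher (adjusted p 5.55e-08). Its level in the hPSC libraries was 1061 and 747 CPM, so the gene was read in hPSC and endoderm and at 0 in mesoderm. PCSK2, a prohormone-cleaving protease, had 162 CPM in each endoderm repeat, at least 27.2-fold higher (adjusted p 3.18e-07), and CALB1, a calcium-binding protein, had 109 and 133 CPM, at least 20.4-fold higher (adjusted p 9.62e-07). SOX17, a defining transcription factor of endoderm, differed between its repeats, with 256 and 27.3 CPM. Its lower bound was 23.8-fold with both repeats (adjusted p 0.000338) and 4.59-fold without endoderm repeat 1 (adjusted p 0.0104), and it was not called by the Wald test of DESeq2 (adjusted p 0.125). Its adjusted p ranged from 1.05e-10 to 0.125 over the alternatives. PPIAP46 is a processed pseudogene of a cyclophilin gene, LEFTY1 and LEFTY2 are close paralogs, and the reads of such copies are uncertain.

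The 12 genes furthest toward mesoderm were GABRP, IGFBP3, COL3A1, PRSS23, ANXA1, IGFBP7, TRIM55, CCBE1, VTCN1, NTRK2, ID4 and SESN3, all with 0 counts in both endoderm libraries. GABRP, a subunit of a GABA receptor that is known from amnion-like cultures (chromosome 5, 170763350 to 170814047), had 4272 and 4674 CPM in mesoderm, at least 873-fold higher (adjusted p 3.6e-08). IGFBP3, which binds insulin-like growth factors, had 1105 and 1300 CPM, at least 235-fold higher (adjusted p 2.89e-07). COL3A1, a fibrillar collagen, had 1034 and 905 CPM, at least 189-fold higher (adjusted p 1e-07). CCBE1, a secreted factor of lymphatic vessel growth, had 429 and 411 CPM, at least 82.0-fold higher (adjusted p 3.53e-07). In these 4 genes both mesoderm repeats lay far above the limit of 5.12 CPM that a count of 0 leaves in endoderm. TRIM55, a muscle ubiquitin ligase with 407 and 482 CPM, was at least 86.8-fold higher (adjusted p 5.82e-07), though the Wald test of DESeq2 did not call it (adjusted p 0.0965).

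Among the 24 genes listed for NODAL and Activin signalling, 18 were tested, 9 were higher in endoderm and 6 higher in mesoderm. The median log2 difference was 1.26 against -0.16 over all tested genes. Most of the 9 were at or near 0 in mesoderm and could pass the count filter only through other groups, so count and median are descriptions. The count on the mesoderm side was 2 without endoderm repeat 2 and 3 with the Wald test of DESeq2. The median was 0.75 without mesoderm repeat 1 and 0.70 with library totals alone. The genes on the endoderm side included ligands, the coreceptor, the nuclear partner FOXH1 and inhibitors. They also included the corepressor TGIF1, with 282 and 314 CPM in endoderm and 175 and 165 CPM in mesoderm, 1.38 ± 0.32 (adjusted p 0.0029). NODAL itself had 222 and 331 CPM in endoderm and 0 and 1.99 CPM in mesoderm, 286-fold higher (51.0 to 11340, adjusted p 2.14e-06). The related ligand GDF3 had 42.7 and 34.1 CPM against 0, at least 6.45-fold higher (adjusted p 3.58e-05). TDGF1, the coreceptor through which NODAL binds its receptors, had 772 and 599 CPM in endoderm and 0 and 3.97 CPM in mesoderm, 355-fold higher (97.9 to 2933, adjusted p 8.23e-08). FOXH1, the DNA-binding partner of SMAD2, had 147 and 176 CPM against 0 and 1.99 CPM, 167-fold higher (29.6 to 6628, adjusted p 2.54e-07). Each of these 4 genes was at or near 0 in mesoderm cultures, where Activin A had been withdrawn after 24 hours.

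The feedback inhibitors of NODAL showed the same order. LEFTY1 (chromosome 1, 225886282 to 225911382) had 2046 and 1764 CPM in endoderm and 0 counts in mesoderm, at least 320-fold higher (adjusted p 3.84e-08). LEFTY2 (chromosome 1, 225936598 to 225941489) had 654 and 802 CPM and 0 counts, at least 122-fold higher (adjusted p 8.23e-08).

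The receptors and SMAD proteins did not share that direction. SMAD2 had 90.5 and 85.3 CPM in endoderm and 84.7 and 101 CPM in mesoderm, a log2 difference of 0.48 ± 0.30 (adjusted p 0.2). Its sign depended on the scaling, with -0.08 with library totals alone (adjusted p 0.832) and 1.35 with a length trend removed (adjusted p 0.00227). SMAD3 had 10.2 and 0 CPM in endoderm and 69.7 and 51.6 CPM in mesoderm, -2.98 ± 0.62 (adjusted p 0.00125). SMAD4, the partner that SMAD proteins of both pathways share, had 5.12 and 3.41 CPM against 32.0 and 35.7 CPM, -2.39 ± 0.59 (adjusted p 0.00396). The type II receptors ACVR2A and ACVR2B were also called higher in mesoderm, at -2.05 ± 0.57 (adjusted p 0.00871) and -1.35 ± 0.48 (adjusted p 0.0308), but each call was lost in 2 of the 4 fits that left out 1 library, with adjusted p up to 0.0909 and 0.21 without endoderm repeat 2. FST, which binds and blocks Activin, was higher in mesoderm at -1.68 ± 0.44 (adjusted p 0.00626), with an adjusted p of 0.106 without endoderm repeat 2. SKIL, a target and inhibitor of the pathway, was also higher in mesoderm, at -1.84 ± 0.48 (adjusted p 0.00606), a call held in 2 of the 4 fits (adjusted p up to 0.0806, without mesoderm repeat 2).

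**Figure D2:**
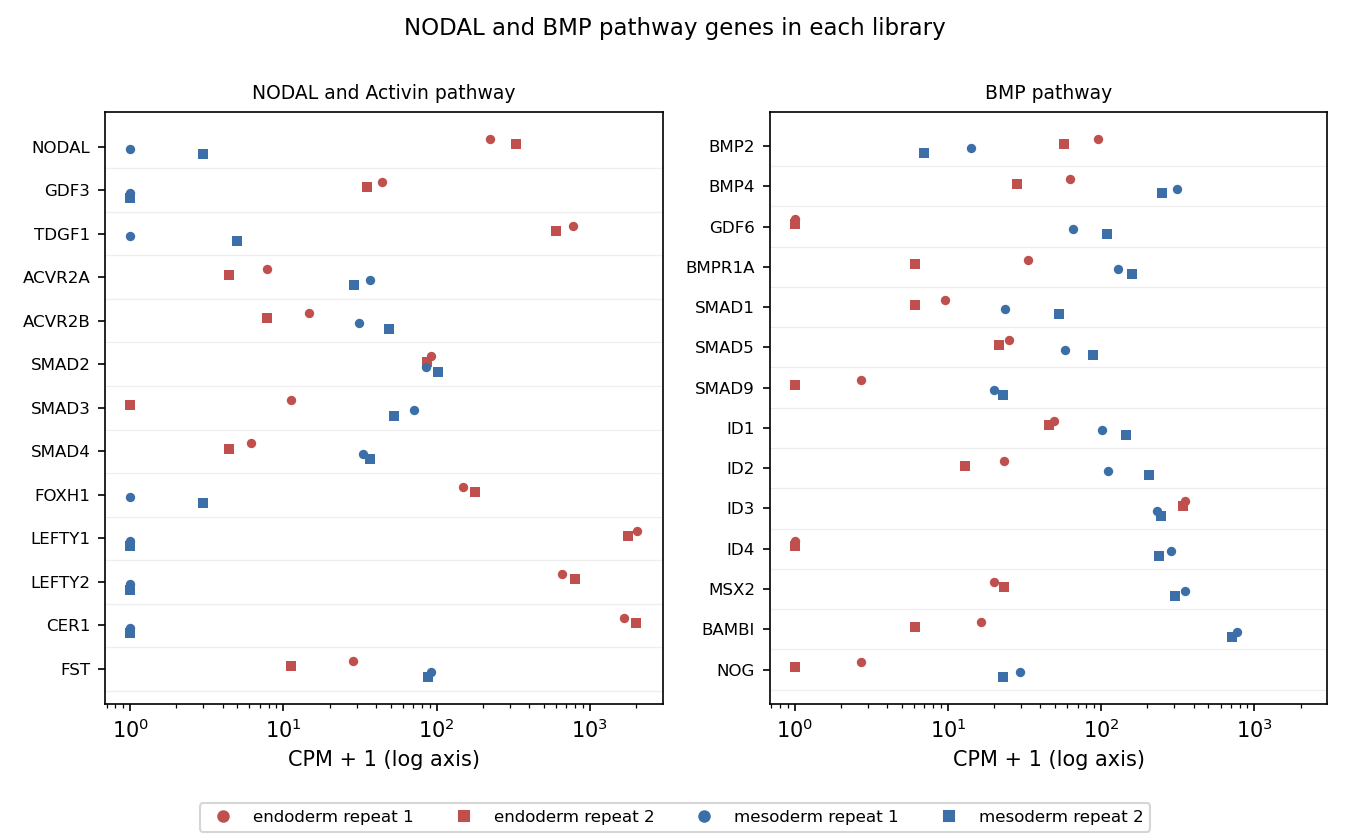
CPM + 1 (log axis) of 13 NODAL and Activin pathway genes (left) and 14 BMP pathway genes (right) in each library, with endoderm in red, mesoderm in blue, and circles and squares for repeats 1 and 2. The inhibitors LEFTY1, LEFTY2 and CER1 sit at 654 CPM or more in endoderm and at 0 in mesoderm, and BAMBI and ID4 sit at 238 CPM or more in mesoderm.

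The 250 bases before the RefSeq start of CER1 are shown because CER1 is a target of FOXH1 in textbook accounts and FOXH1 moved with it here. The window is chr9:14722734-14722983 on the minus strand of GRCh38.p14, printed 5′ to 3′, and the capitals mark a match to the FOXH1 motif TGTGTATT on the opposite strand.
CER1 promoter: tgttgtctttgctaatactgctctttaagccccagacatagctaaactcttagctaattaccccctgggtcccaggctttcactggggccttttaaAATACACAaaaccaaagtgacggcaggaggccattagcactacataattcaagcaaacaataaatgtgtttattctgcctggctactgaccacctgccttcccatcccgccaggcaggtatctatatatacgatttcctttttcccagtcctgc
The match starts 154 bases before the start site. The motif was searched on both strands in all 35116 RefSeq promoter windows, and 0.766% held it, while 0.817% held the other form searched, TGTGGATT. Of the 12 genes furthest toward endoderm 4 had a window in the table, and CER1 was the 1 with a match. Of the 12 genes furthest toward mesoderm 9 had a window, and 0 had a match to either form. A GATA motif, AGATAA (10.3% of all windows), was in MIR302CHG and SESN3. A TFAP2 motif, GCCNNNGGC (23.2%), was in PCSK2 on the endoderm side and in NTRK2, PRSS23 and VTCN1 on the mesoderm side. A match describes these letters and is not evidence of binding.

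Of 18 listed endoderm transcription factors and receptors 13 were tested and 13 were higher in endoderm, with a median log2 difference of 7.84. Most of the 13 were at or near 0 in mesoderm and could pass the count filter only through the groups where they are high, so this count is a description. SOX7, which was not tested, had 0 counts in endoderm and 3.77 and 5.95 CPM in mesoderm. GATA4 had 123 and 109 CPM in endoderm, at least 19.5-fold higher (adjusted p 2.19e-06), and EOMES, the T-box factor that starts endoderm formation, had 120 and 95.5 CPM, at least 18.1-fold higher (adjusted p 2.72e-06). GSC, a homeobox factor of the anterior streak, had 71.7 and 59.7 CPM, at least 11.04-fold higher (adjusted p 9.16e-06). All 3 had 0 counts in mesoderm. OTX2, a homeobox factor of anterior tissues, had 412 and 406 CPM in endoderm and 0 and 1.99 CPM in mesoderm, 423-fold higher (75.6 to 16750, adjusted p 2.19e-07). CXCR4, the receptor used to sort endoderm cells, had 68.3 and 85.3 CPM against 0 and 1.99 CPM, 79.5-fold higher (13.9 to 3174, adjusted p 6.13e-06). GATA6 was read in both groups, with 35.9 and 47.8 CPM in endoderm and 15.1 and 5.95 CPM in mesoderm, a log2 difference of 2.52 ± 0.52 (adjusted p 0.00151). FOXA2, a defining factor of later endoderm, had 5.12 and 6.82 CPM in endoderm and was not tested, and HHEX had 20.5 and 13.7 CPM and was not tested either.

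Of 27 BMP ligands, receptors and targets 21 were tested, 13 were higher in mesoderm and 4 higher in endoderm, with a median log2 difference of -2.10. The 13 became 8 without endoderm repeat 2, and the 4 became 2 with library totals alone. BMP4, which was also added to the mesoderm medium, had 61.5 and 27.3 CPM in endoderm and 311 and 248 CPM in mesoderm, -2.10 ± 0.36 (adjusted p 0.000327). The ligand BMP2 had the opposite order, with 93.9 and 56.3 CPM in endoderm and 13.2 and 5.95 CPM in mesoderm, 3.49 ± 0.47 (adjusted p 4.17e-05). GDF6, a further BMP-family ligand, had 64.0 and 107 CPM in mesoderm and 0 in endoderm, at least 16.7-fold higher (adjusted p 2.76e-05). BMP2 thus lay on the opposite side from BMP4 and GDF6.

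Of 8 listed target genes tested, ID2, ID4, MSX2 and BAMBI were higher in mesoderm, ID3 and SMAD6 were higher in endoderm, and ID1 and SMAD7 were not called. BAMBI, a decoy receptor induced by BMP, had 15.4 and 5.12 CPM in endoderm and 766 and 715 CPM in mesoderm, -5.60 ± 0.54 (adjusted p 2.13e-06). MSX2, a homeobox factor, had 18.8 and 22.2 CPM against 350 and 304 CPM, -3.42 ± 0.41 (adjusted p 1.42e-05). The 4 ID genes, which encode inhibitors of bHLH factors, did not move together. ID4 had 0 counts in endoderm and 282 and 238 CPM in mesoderm, at least 50.8-fold higher (adjusted p 1.61e-06). ID2 had 22.2 and 11.9 CPM against 109 and 202 CPM, -2.62 ± 0.47 (adjusted p 0.000397). ID1 had 47.8 and 44.4 CPM against 99.8 and 145 CPM, -0.84 ± 0.34, and missed the threshold (adjusted p 0.0505). It passed with library totals alone (adjusted p 0.00627), with a length trend removed (0.00125) and with the 4 libraries fitted alone (0.00399). ID3 had 348 and 343 CPM in endoderm and 230 and 244 CPM in mesoderm, 1.11 ± 0.30 (adjusted p 0.00642), a call lost with library totals alone and with a length trend removed. The inhibitory SMAD6 had 34.2 and 30.7 CPM against 15.1 and 15.9 CPM, 1.62 ± 0.50 (adjusted p 0.0146), a call lost in each of the 4 fits that left out 1 library (adjusted p 0.0757 to 0.0984). Its partner SMAD7 had 13.7 and 22.2 CPM against 26.4 and 23.8 CPM (adjusted p 0.904).

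Of the BMP signal carriers, BMPR1A, a type I receptor, was higher in mesoderm at -2.36 ± 0.58 (adjusted p 0.00368), with an adjusted p of 0.0864 without endoderm repeat 2. SMAD1, SMAD5 and SMAD9 were each called higher in mesoderm, but each call held in 1 of the 4 fits that left out 1 library, with adjusted p up to 0.208, 0.229 and 0.0969. Their counts were low, at most 23.9 CPM in endoderm and 87.3 CPM in mesoderm.

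Of 37 mesoderm transcription factors 9 were tested, 6 were higher in mesoderm and 2 higher in endoderm. The 6 were HAND1, TBX3, ISL1, SNAI2, MEIS1 and MEIS2. TBX3 had 39.3 and 32.4 CPM in endoderm and 248.5 and 357 CPM in mesoderm, -2.51 ± 0.35 (adjusted p 4.89e-05). ISL1, a homeobox factor of cardiac progenitors and of amnion, had 13.7 and 22.2 CPM against 156 and 185 CPM, -2.67 ± 0.39 (adjusted p 0.000106). MEIS1 had 0 counts in endoderm and 65.9 and 55.6 CPM in mesoderm, at least 11.8-fold higher (adjusted p 5.65e-05). The 2 higher in endoderm were NKX2-5, with 58.1 and 42.7 CPM against 1.88 and 0 CPM, and SNAI1, with 68.3 and 61.4 CPM against 9.41 and 7.94 CPM. NKX2-5 is a homeobox factor of heart and foregut, and SNAI1 represses CDH1 in cells that leave the streak. NKX2-5 was 52.1-fold higher (8.997 to 2093, adjusted p 3.77e-05) and SNAI1 differed by 3.43 ± 0.43 (adjusted p 2.01e-05). SNAI2, the paralog of SNAI1, had the reverse order, at 3.42 and 0 CPM in endoderm and 79.1 and 51.6 CPM in mesoderm, 38.5-fold higher in mesoderm (10.2 to 324, adjusted p 0.000348).

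Several defining mesoderm genes were low or at 0 in the mesoderm libraries. TBXT, the T-box factor of the streak, had 1.88 and 0 CPM. The paraxial factors TBX6 and FOXC1 had 11.3 and 5.95 CPM and 1.88 and 0 CPM. FOXF1, a factor of lateral plate mesoderm as HAND1 is, had 0 counts. The mesoderm label therefore rests on HAND1, TBX3, ISL1, SNAI2, MEIS1, MEIS2 and matrix genes, and it is used below as the name of the libraries.

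Markers of amnion and trophoblast moved with the mesoderm label. Of 22 listed genes, a list chosen with earlier results of these data known, 16 were tested and all 16 were higher in mesoderm, with a median log2 difference of -7.12. Of the 22, 14 had no count in endoderm. Such genes could pass the count filter only through the groups where they are high, so the 16 of 16 is a description. Their summed level was 145 and 93.8 CPM in endoderm and 8350 and 9060 CPM in mesoderm, of which GABRP made up 4272 and 4674 CPM. TFAP2A, a transcription factor of amnion, trophoblast and surface ectoderm, had 6.83 and 0 CPM in endoderm and 256 and 330 CPM in mesoderm, -5.81 ± 0.58 (adjusted p 3.96e-06). VTCN1, a cell surface protein, had 0 counts in endoderm and 365 CPM in each mesoderm repeat, at least 71.3-fold higher (adjusted p 1.46e-07). CGA, the alpha subunit of chorionic gonadotropin, had 54.6 and 65.5 CPM in mesoderm and 0 counts in endoderm, at least 11.7-fold higher (adjusted p 9.31e-05). HEY1, a NOTCH and BMP target, had 213 and 238 CPM and 0 counts, at least 44.0-fold higher (adjusted p 5.44e-07). ISL1, TBX3 and BAMBI stand in this list and also in a mesoderm or BMP list, KRT7 also in the adhesion list and WNT6 also in the WNT list. Which share of the mesoderm cultures such cells made up, and their part in the other differences, was not tested.

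Markers of other cell types gave weaker patterns. Of 18 neural ectoderm genes 11 were tested, 2 were higher in endoderm, among them PAX6, and 1 in mesoderm, LIX1. The summed level of the list was 255 and 208 CPM in endoderm and 141 and 173 CPM in mesoderm, and SOX2, LHX5, SIX6 and RAX had 0 counts in all 4 libraries. LIX1 had 3.42 and 3.41 CPM in endoderm and 134 and 161 CPM in mesoderm, -4.81 ± 0.49 (adjusted p 4.67e-06). PAX6 had 10.2 and 8.53 CPM in endoderm and 0 counts in mesoderm, at least 1.58-fold higher (adjusted p 0.00498). Of the 39 HOX genes 1 was tested, HOXB2, which had 0 and 1.71 CPM in endoderm and 58.4 and 61.5 CPM in mesoderm, 70.2-fold higher (12.1 to 2817, adjusted p 0.000132).

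VEGF was part of the mesoderm medium, but vascular genes were sparse in both groups. Of 26 listed genes 8 were tested, 3 were higher in endoderm and 2 in mesoderm. The 2 became 1 without either endoderm repeat, without mesoderm repeat 2 and with a length trend removed. The median log2 difference was -0.17 and turned to 0.25 with a length trend removed, 0.83 without mesoderm repeat 1 and 0.53 without mesoderm repeat 2. KDR, the main VEGF receptor, had 44.4 and 37.5 CPM in endoderm and 1.88 and 1.99 CPM in mesoderm, 21.2-fold higher in endoderm (5.56 to 180, adjusted p 1.81e-05). APLNR, the apelin receptor of mesendoderm, had 93.9 and 97.2 CPM in endoderm and 7.53 and 3.97 CPM in mesoderm, 4.56 ± 0.46 (adjusted p 4.91e-06). EFNB2, an ephrin ligand, had 3.42 and 1.71 CPM against 96.0 and 81.4 CPM, 34.7-fold higher in mesoderm (11.5 to 171, adjusted p 5.93e-05). CD34, TIE1 and ETV2 had at most 1 count in any of the 4 libraries.

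**Figure D3:**
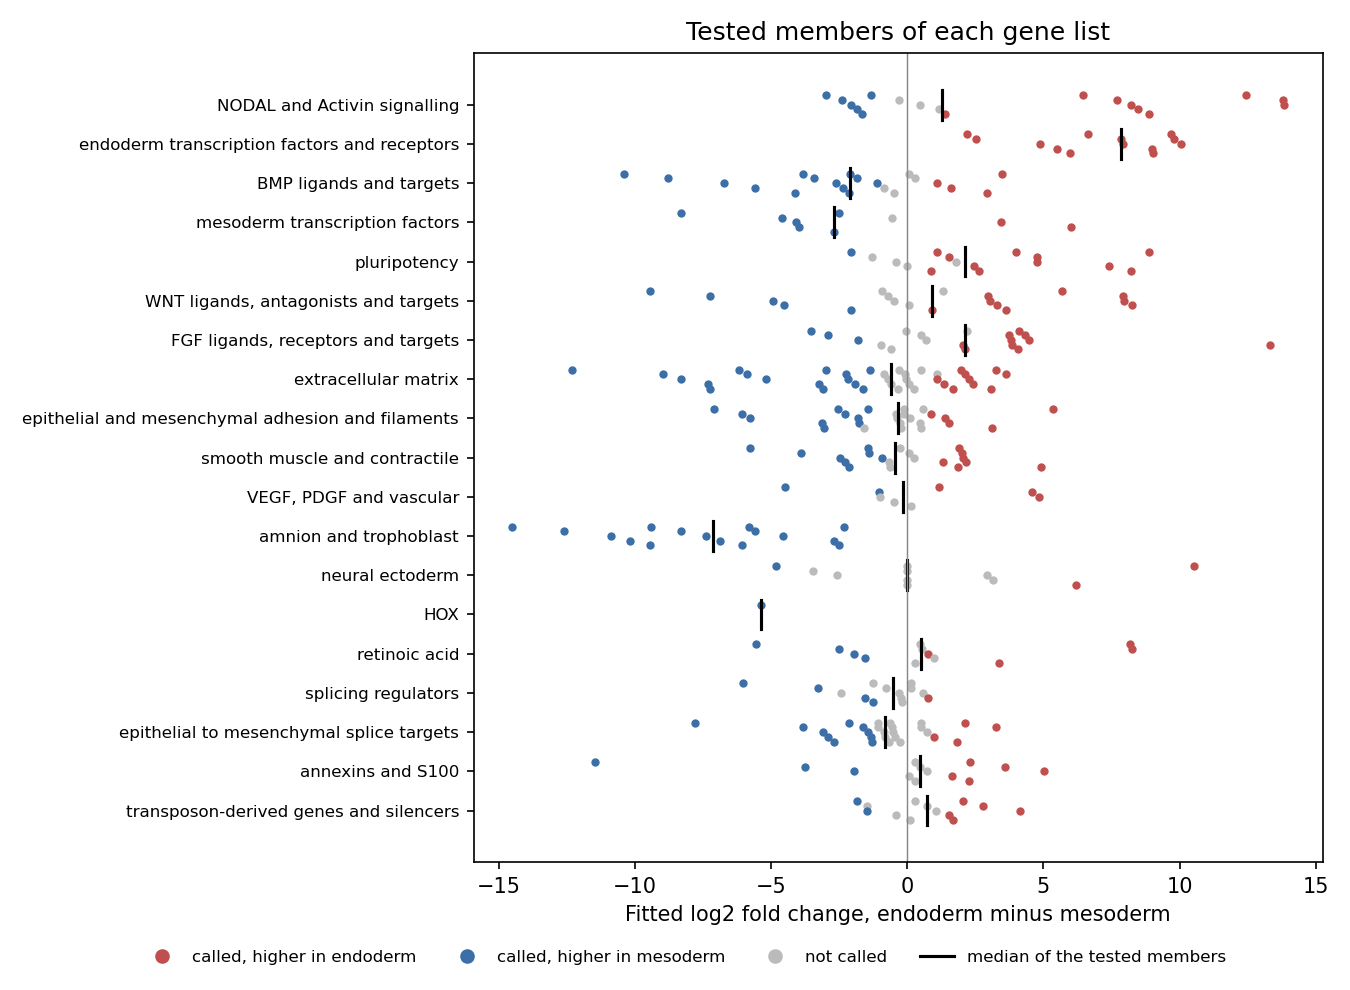
Fitted log2 fold change of endoderm over mesoderm for every tested member of the 19 gene lists, 1 row a list, with members called higher in endoderm in red, called higher in mesoderm in blue and not called in grey, and a black bar at the median. The endoderm list lies wholly to the right of 0 and the amnion and trophoblast list wholly to the left, and most other lists have called members on both sides.

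Of 18 pluripotency genes 16 were tested, 11 were higher in endoderm and 1 was higher in mesoderm, with a median log2 difference of 2.11. NANOG, TDGF1 and GDF3 were at or near 0 in mesoderm and could pass the count filter only through other groups, so this count is a description. TDGF1 and GDF3 are counted in the NODAL and Activin list too. POU5F1 had 104 and 118 CPM in endoderm and 1.88 and 9.92 CPM in mesoderm, 4.78 ± 0.60 (adjusted p 2e-05). SALL4, a zinc finger factor, had 518 and 495 CPM against 99.8 and 139 CPM, 2.65 ± 0.34 (adjusted p 2.54e-05). LIN28A, which blocks the maturation of let-7 RNA, had 835 and 761 CPM against 228 and 204 CPM, 2.45 ± 0.32 (adjusted p 2.8e-05). Its paralog LIN28B was the 1 gene of the list on the mesoderm side, with 5.12 CPM in both endoderm libraries and 30.1 and 33.7 CPM in mesoderm, -2.05 ± 0.52 (adjusted p 0.00498). SOX2 was at 0 in both groups, so it did not follow NANOG and POU5F1.

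Of 38 WNT pathway genes 19 were tested, 9 were higher in endoderm and 5 in mesoderm. The ligands split: WNT3, a ligand of the streak, had 220 and 166 CPM in endoderm and 1.88 and 0 CPM in mesoderm, 200-fold higher (35.5 to 7919, adjusted p 4.43e-07). WNT6 had 132 and 137 CPM in mesoderm and 0 counts in endoderm, at least 26.2-fold higher (adjusted p 6.68e-06), and WNT11 had 30.1 and 35.7 CPM in mesoderm against 0 and 1.71 CPM. Of the secreted antagonists tested, FRZB, DKK1, DKK3, DKK4 and SFRP2 were called higher in endoderm and SFRP1 was not called. The call of DKK3 (0.91, adjusted p 0.0457) was lost in each of the 4 fits that left out 1 library (adjusted p 0.0633 to 0.326). FRZB had 217 and 177 CPM in endoderm and 0 and 1.99 CPM in mesoderm, 204-fold higher (36.3 to 8093, adjusted p 5.82e-07). DKK4 had 35.9 and 42.7 CPM and 0 counts, at least 6.59-fold higher (adjusted p 6.77e-05), and DKK1 had 37.6 and 42.7 CPM against 0 and 1.99 CPM, 41.5-fold higher (7.10 to 1674, adjusted p 8.3e-05). AXIN2, a feedback target of WNT, had 25.6 and 27.3 CPM against 5.65 and 1.99 CPM, 3.28 ± 0.62 (adjusted p 0.000643). LEF1, a nuclear partner of beta-catenin, had the opposite order, with 0 counts in endoderm and 26.4 and 31.8 CPM in mesoderm, at least 5.67-fold higher (adjusted p 0.000503).

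Of 25 FGF pathway genes 19 were tested, 10 were higher in endoderm and 3 in mesoderm, with a median log2 difference of 2.13. The median was 1.32 without endoderm repeat 1 and 1.22 without endoderm repeat 2. Genes known to be induced by FGF signalling were called on both sides, and more of them on the endoderm side. DUSP4, DUSP6, SPRY4, ETV4, ETV5 and IL17RD were higher in endoderm, and SPRY2 and FLRT3 in mesoderm. The log2 difference was 4.48 for DUSP4 (adjusted p 1.42e-06) and 2.13 for IL17RD (adjusted p 0.00142). bFGF is listed for the mesoderm medium and not for the endoderm medium. DUSP6, a phosphatase that damps the MAP kinase ERK, had 219 and 152 CPM in endoderm and 7.53 and 19.9 CPM in mesoderm, 4.31 ± 0.50 (adjusted p 9.75e-06). SPRY4, an inhibitor of receptor signalling, had 157 and 160 CPM against 11.3 and 23.8 CPM, 3.74 ± 0.41 (adjusted p 6.99e-06). The ETS factors ETV4 and ETV5 differed by 4.09 ± 0.42 (adjusted p 3.77e-06) and 3.82 ± 0.39 (adjusted p 3.49e-06). On the mesoderm side was SPRY2, a paralog of SPRY4, with 15.4 and 11.9 CPM in endoderm and 73.4 and 69.5 CPM in mesoderm, -1.82 ± 0.44 (adjusted p 0.00338). FLRT3, a membrane protein that binds FGF receptors, had 13.7 and 11.9 CPM against 237 and 208 CPM, -3.54 ± 0.38 (adjusted p 4.85e-06). SPRY1, SPRED1, SPRED2 and ETV1 were not called. The receptors split between the groups. FGFR4 had 159 and 203 CPM in endoderm and 26.4 and 9.92 CPM in mesoderm, 3.86 ± 0.42 (adjusted p 5.61e-06), while FGFR2 had 20.5 and 10.2 CPM against 164 and 179 CPM, -2.91 ± 0.40 (adjusted p 5.08e-05).

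Of 28 adhesion and filament genes 26 were tested, 10 were higher in mesoderm and 5 in endoderm, or 3 in endoderm without mesoderm repeat 1. The classical cadherins lay in opposite order. CDH1, the epithelial cadherin, had 150 and 118 CPM in endoderm and 1540 and 1711 CPM in mesoderm, -3.04 ± 0.31 (adjusted p 3.62e-06). CDH2, the neural cadherin that is gained in cells leaving the streak, had 412 and 338 CPM in endoderm and 15.1 and 11.9 CPM in mesoderm, 5.33 ± 0.38 (adjusted p 1.45e-07). In the hPSC libraries CDH1 was at 693 and 509 CPM and CDH2 at 25.03 and 23.13 CPM, so for each cadherin hPSC lay between the 2 groups. The desmosome genes DSP and PKP2 were on the side of CDH1. DSP had 97.3 and 83.6 CPM in endoderm and 599 and 703 CPM in mesoderm, -2.28 ± 0.31 (adjusted p 4.26e-05), and PKP2 had 108 and 118 CPM against 930 and 1002 CPM, -2.53 ± 0.32 (adjusted p 2.58e-05). JUP, plakoglobin, which also serves desmosomes, was called on the opposite side (0.87, adjusted p 0.028), but in 1 of the 4 fits that left out 1 library (adjusted p up to 0.157, without endoderm repeat 2).

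The claudins of tight junctions and the filament genes were mixed. CLDN4 had 6.83 and 1.71 CPM in endoderm and 330 and 373 CPM in mesoderm, -5.76 ± 0.53 (adjusted p 1.29e-06). CLDN7 had 258 and 319 CPM in endoderm and 35.8 and 63.5 CPM in mesoderm, 3.11 ± 0.45 (adjusted p 6.65e-05). VIM, the filament of mesenchymal cells, was higher in endoderm, with 555 and 467 CPM against 213 and 308 CPM, 1.54 ± 0.31 (adjusted p 0.00108). The epithelial keratins KRT8 and KRT18 were abundant in all 4 libraries, with 3451 to 4013 CPM for KRT8 and 2598 to 4644 CPM for KRT18. Neither passed the test, at 0.59 ± 0.37 (adjusted p 0.203) and -0.10 ± 0.32 (adjusted p 0.809). KRT8 passed with the 4 libraries fitted alone (0.48, adjusted p 0.0459) and KRT18 with library totals alone (-0.67, adjusted p 0.0342), and the sign of KRT18 turned without endoderm repeat 1 (0.03). KRT7, a keratin of amnion and trophoblast, had 1.71 and 0 CPM in endoderm and 102 and 91.3 CPM in mesoderm, 113-fold higher (19.9 to 4516, adjusted p 5.19e-05).

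**Figure D4:**
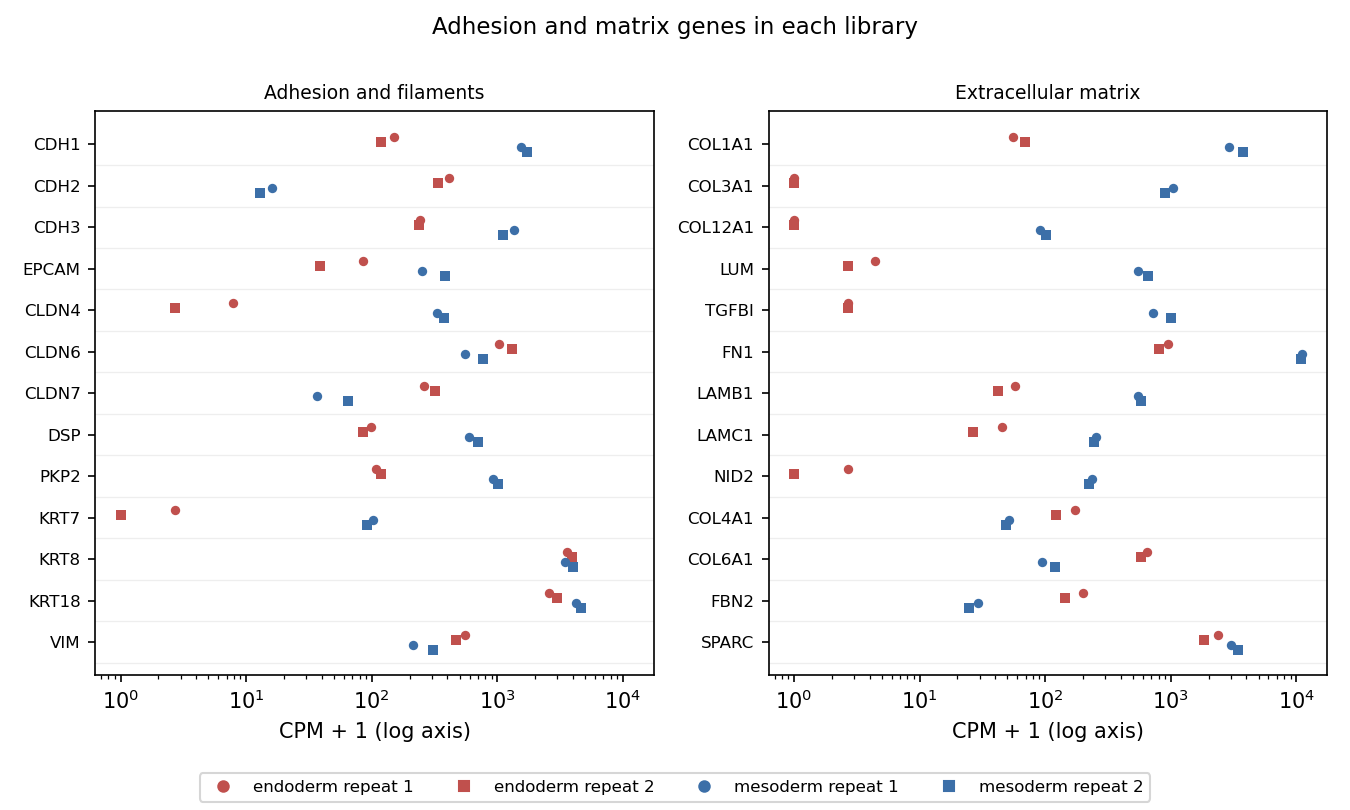
CPM + 1 (log axis) of 13 adhesion and filament genes (left) and 13 matrix genes (right) in each library, with endoderm in red, mesoderm in blue, and circles and squares for repeats 1 and 2. CDH1 and CDH2 lie in opposite order, KRT8 and KRT18 nearly coincide, and FN1 reaches 11110 and 10970 CPM in mesoderm.

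Of 46 extracellular matrix genes all but 9 were tested, 16 were higher in mesoderm and 10 in endoderm, with a median log2 difference of -0.60. With a length trend removed these became 13 and 12 and the median -0.05, and with library totals alone 20 and 8 and -1.15. The summed level of the list was 8247 and 6742 CPM in endoderm and 27870 and 28680 CPM in mesoderm. FN1, fibronectin, had 948 and 805 CPM in endoderm and 11110 and 10970 CPM in mesoderm, -3.09 ± 0.35 (adjusted p 8.85e-06). Fibrillar collagen COL1A1 (chromosome 17, 50183289 to 50201632) had 54.7 and 68.2 CPM in endoderm and 2915 and 3731 CPM in mesoderm, -5.18 ± 0.38 (adjusted p 1.74e-07). TGFBI, an adhesion protein induced by TGF-beta, had 1.71 CPM in both endoderm libraries and 727 and 1000 CPM in mesoderm, 503.8-fold higher (139 to 4167, adjusted p 3.84e-08). TIMP3, an inhibitor of matrix proteases, had 8.54 and 3.41 CPM against 717 and 574 CPM, -6.16 ± 0.55 (adjusted p 8.16e-07).

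Basement membrane genes were called in both directions. LAMB1 and LAMC1, the laminin beta and gamma chains, were higher in mesoderm at -2.97 ± 0.34 (adjusted p 8.5e-06) and -2.26 ± 0.34 (adjusted p 8.99e-05). The alpha chain LAMA5 was called higher in mesoderm too (-1.62, adjusted p 0.00781), a call lost in each of the 4 fits that left out 1 library (adjusted p 0.0502 to 0.0919), and LAMB2 was not called. The alpha chain LAMA1 had 167 and 108 CPM in endoderm and 62.1 and 63.5 CPM in mesoderm, 1.68 ± 0.33 (adjusted p 0.000858). NID2, which joins laminin to collagen, had 1.71 and 0 CPM in endoderm and 235 and 222 CPM in mesoderm, 268-fold higher (47.7 to 10640, adjusted p 4.64e-07). On the endoderm side were COL4A1 at 2.12 ± 0.38 (adjusted p 0.000456), COL6A1 with 647 and 580 CPM against 94.1 and 119 CPM, 3.09 ± 0.43 (adjusted p 5.11e-05), and the fibrillin FBN2 at 3.26 ± 0.36 (adjusted p 6.77e-06).

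Contractile genes split as well, with 7 higher in endoderm and 8 in mesoderm of 20 tested, or 5 in mesoderm without endoderm repeat 2. The actin-binding protein CNN2 had 2073 and 2416 CPM in endoderm and 836 and 762 CPM in mesoderm, 2.06 ± 0.34 (adjusted p 0.000238), and the atrial light chain MYL7 had 92.2 and 73.4 CPM against 1.88 and 5.95 CPM, 4.91 ± 0.53 (adjusted p 8.38e-06). TNNT2, cardiac troponin T, had 1.71 and 0 CPM in endoderm and 69.7 and 89.3 CPM in mesoderm, 92.8-fold higher (16.2 to 3711, adjusted p 1.77e-05). TPM1, a tropomyosin, had 297 and 224 CPM against 1294 and 2098 CPM, -2.14 ± 0.32 (adjusted p 0.000107).

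Annexins bind membranes in the presence of calcium. Of 13 annexin and S100 genes tested, 5 were higher in endoderm and 3 in mesoderm, and the sign of the list's median, 0.47, turned to -0.10 with library totals alone. ANXA1 had 0 counts in endoderm and 499 and 580 CPM in mesoderm, at least 105-fold higher (adjusted p 2.19e-07). ANXA6 had 1161 and 1172 CPM in endoderm and 33.9 and 71.5 CPM in mesoderm, 5.04 ± 0.40 (adjusted p 3.26e-07). ANXA3 had 41.0 and 15.4 CPM against 512 and 603 CPM, -3.75 ± 0.42 (adjusted p 6.99e-06).

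Retinoic acid genes were tested in 12 cases, with 4 called in each direction (2 higher in mesoderm without endoderm repeat 2), and the median of the list, 0.51, turned to -0.05 with library totals alone. CYP26A1, the enzyme that breaks down retinoic acid, had 4804 and 4045 CPM in endoderm and 13.2 and 31.8 CPM in mesoderm, 8.18 ± 0.49 (adjusted p 3.6e-08). RARB, a retinoic acid receptor that is itself a target of the acid, had 0 and 1.71 CPM in endoderm and 67.8 and 69.5 CPM in mesoderm, 80.4-fold higher (13.97 to 3219, adjusted p 0.000111). The binding protein CRABP1 had 41.0 and 37.5 CPM in endoderm and 0 counts in mesoderm, at least 6.59-fold higher (adjusted p 2.71e-05).

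Because the study is about transposable elements, genes derived from or silencing them were counted too. Of 21 listed genes 13 were tested, 5 were higher in endoderm and 2 in mesoderm, or 1 in mesoderm without endoderm repeat 1. PEG10, an imprinted gene derived from a retrotransposon, had 432 and 389 CPM in endoderm and 58.4 and 117 CPM in mesoderm, 2.79 ± 0.35 (adjusted p 2.18e-05). RTL8C, of the same origin, had 191 and 244 CPM against 102 and 123 CPM, 1.52 ± 0.31 (adjusted p 0.000971). ESRG, a transcript started by a HERVH element, had 52.9 and 20.5 CPM in endoderm and 0 and 5.95 CPM in mesoderm, 12.7-fold higher (4.05 to 63.8, adjusted p 0.000678). MPHOSPH8, a subunit of the HUSH silencing complex, had 8.54 and 8.53 CPM against 52.7 and 37.7 CPM, -1.83 ± 0.47 (adjusted p 0.00549) and not called by the Wald test of DESeq2 (0.0522).

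At transcript level 12440 transcripts were tested and 5692 differed (45.8%), 2644 higher in endoderm (21.3%) and 3048 higher in mesoderm (24.5%). Transcripts with no reference gene were the class with the most uneven split among the classes with over 100 tested transcripts. Of 109 tested, from 60 loci, 33 were higher in endoderm (30.3%, at 26 loci) and 3 were higher in mesoderm (2.75%, at 3 loci). Of 9709 tested transcripts that match a reference transcript, 22.2% were higher in endoderm and 25.1% in mesoderm, and of 128 inside a reference intron 13.3% and 25%. Transcripts of 1 locus share sequence and are not independent.

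The largest differences of this class toward endoderm were at 3 loci, each with 0 counts in mesoderm. A transcript of 1 exon and 1699 nt at chromosome 1, 94570790 to 94572488, had 93.9 and 164 CPM in endoderm, at least 21.6-fold higher (adjusted p 8.55e-06). It had 0 counts in the hPSC and ectoderm libraries too, and overlaps the coordinates of the RefSeq lncRNA LOC105378861. A spliced transcript at chromosome 19, 36155467 to 36160698, had 82.0 and 90.4 CPM, at least 14.5-fold higher (adjusted p 6.78e-06), and 21.2 and 28.5 CPM in hPSC. Its nearest RefSeq gene, COX7A1, is 3020 bases away. A transcript of 312 nt at chromosome 1, 155308056 to 155308367, had 56.4 and 95.5 CPM, at least 12.8-fold higher (adjusted p 2.82e-05). It overlaps the coordinates of the RefSeq gene PKLR. Strands were not compared for either overlap. The 3 transcripts higher in mesoderm were 11471 to 30796 nt long and had at most 31.8 CPM there. At chromosome 2, 173542697 to 173571275, the library values were 5.12 and 0 CPM in endoderm and 28.2 and 31.8 CPM in mesoderm, 11.7-fold higher (3.65 to 59.8, adjusted p 0.0041). In ectoderm it had 41.5 and 62.0 CPM.

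Long reads also show which transcripts of a gene were used. Of 2601 genes with at least 2 tested transcripts, 259 differed in transcript choice (9.96%, edgeR diffSpliceDGE, adjusted p under 0.05), and 112 of these were not called at gene level. Of 20 genes on a list of epithelial to mesenchymal splice targets with enough transcripts, 8 were called. Among 14 splicing regulators tested at gene level, 4 were higher in mesoderm and 1 in endoderm, which became 8 and 0 with library totals alone and 2 and 2 with a length trend removed. The 4 became 2 without endoderm repeat 2 or mesoderm repeat 2, and the 1 became 0 without any 1 of the 4 libraries. MBNL2 had 0 and 1.71 CPM in endoderm and 88.5 and 103 CPM in mesoderm, 112-fold higher (19.7 to 4471, adjusted p 6.23e-06). RBM47 had 17.1 and 3.41 CPM against 113 and 187 CPM, -3.29 ± 0.53 (adjusted p 0.000181). The epithelial regulator ESRP1 had 70.0 and 73.4 CPM against 173 and 191 CPM, and it missed the threshold at -0.78 ± 0.34 (adjusted p 0.0694). It passed with library totals alone (adjusted p 0.00247) and with the 4 libraries fitted alone (0.00177).

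The exons that carried the differences were counted in each library over the reads informative for them, with at least 20 such reads a library. A read counts here by the assembled transcript it was assigned to, which contains the exon or skips it. The reads themselves were not inspected, so a read need not cover the exon or the start it is counted for. The reference sequences of the skipped or exchanged coding exons are shown for the genes in which a single exon or pair carried the difference. They come from GENCODE 29 on GRCh38, 5′ to 3′, with the exon in capitals and 20 bases of each neighbouring exon in lower case. The SUN1 exons are chr7:849520-849603 and chr7:851384-851482 and the DNM2 exons are chr19:10796061-10796199 and chr19:10797380-10797518, all on the plus strand.
SUN1 84-nt exon: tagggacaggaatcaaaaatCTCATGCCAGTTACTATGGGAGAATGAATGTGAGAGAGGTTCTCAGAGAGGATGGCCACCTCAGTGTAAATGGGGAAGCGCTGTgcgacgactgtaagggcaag
SUN1 99-nt exon: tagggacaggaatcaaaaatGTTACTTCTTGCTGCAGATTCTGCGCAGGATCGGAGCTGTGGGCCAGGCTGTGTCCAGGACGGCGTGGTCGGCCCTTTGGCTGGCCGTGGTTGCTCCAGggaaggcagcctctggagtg
DNM2 upstream exon: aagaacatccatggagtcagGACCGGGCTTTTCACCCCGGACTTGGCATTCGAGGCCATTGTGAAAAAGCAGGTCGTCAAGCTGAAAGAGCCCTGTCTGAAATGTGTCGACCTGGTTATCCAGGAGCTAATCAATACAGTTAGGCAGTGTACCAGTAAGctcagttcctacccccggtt
DNM2 downstream exon: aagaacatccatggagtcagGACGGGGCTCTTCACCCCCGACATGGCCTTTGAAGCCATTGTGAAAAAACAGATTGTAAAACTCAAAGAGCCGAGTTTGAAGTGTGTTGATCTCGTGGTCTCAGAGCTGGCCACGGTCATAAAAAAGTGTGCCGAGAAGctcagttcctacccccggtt

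SUN1, a protein of the inner nuclear membrane that links chromatin to the cytoskeleton, used more of both exons in mesoderm (adjusted p 2.15e-08 for transcript choice). The 84-nt exon was in 27.9% (34 of 122 reads, 95% Wilson interval 20.7 to 36.4) and 27.6% (37 of 134) of the endoderm reads and in 70.7% (128 of 181) and 72.1% (111 of 154) of the mesoderm reads. The 99-nt exon was in 55.3% and 49.0% of the endoderm reads and in 97.3% and 97.0% of the mesoderm reads. Both lengths are multiples of 3, so skipping either keeps the reading frame.

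DNM2, the GTPase dynamin 2 that pinches off vesicles, carries 1 of 2 exons of 139 nt that are 69.8% identical. The downstream exon was in 71.4% (25 of 35 reads, Wilson interval 55.0 to 83.7) and 75.8% (25 of 33) of the endoderm reads and in 32.3% (41 of 127) and 36.3% (33 of 91) of the mesoderm reads. The upstream exon was in the remaining reads. The call for DNM2 (adjusted p 0.0244) was lost in each of the 4 fits that left out 1 library, with adjusted p from 0.173 to 0.334. The same was so for ACTN1, MAP3K7 and TCF7L2, with adjusted p up to 0.354, 0.271 and 0.37, and SEPTIN9 was called in 1 of the 4 (up to 0.27).

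CTNND1, p120 catenin that stabilises cadherins, included a 119-nt exon (chr11:57789037-57789155) in 66.1% and 67.3% of the endoderm reads and in 31.3% and 26.3% of the mesoderm reads (adjusted p 2.23e-07). The gene itself was not called (adjusted p 0.547). TNC, the matrix protein tenascin C, included 273-nt exons more often in endoderm (adjusted p 2.23e-07). The exon at chr9:115046410-115046682 was in 86.5% and 90.4% of the endoderm reads and in 54.1% and 51.8% of the mesoderm reads. TNC itself was not called at gene level, at -0.72 ± 0.29 (adjusted p 0.0532), but it was called with library totals alone, with the 4 libraries fitted alone and with all transcripts listed under the gene counted.

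Start exons, taken from the assembled transcripts in the same way, moved in other genes. SLC44A2, a choline transporter on chromosome 19, had the smallest p of the test (3.37e-10). The upstream start, with its donor site at position 10602561, was used by 75.0% (147 of 196) and 74.1% (143 of 193) of the endoderm reads and by 11.8% (37 of 315) and 10.3% (22 of 214) of the mesoderm reads. A 125-nt exon near the other end of the gene was in 45.5% and 53.6% of the endoderm reads and in 1.94% and 5.45% of the mesoderm reads. Its counts equal those of a single assembled transcript that matches no reference transcript. SULF2, a sulfatase that trims heparan sulfate, used its outer start in 78.1% and 73.3% of the endoderm reads and in 17.1% and 23.1% of the mesoderm reads (adjusted p 4.35e-07). TPM1 used an inner start exon, with its donor at position 63048707 on chromosome 15, in 19.7% and 29.7% of the endoderm reads and in 2.83% and 1.37% of the mesoderm reads (adjusted p 7.61e-07).

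**Figure D5:**
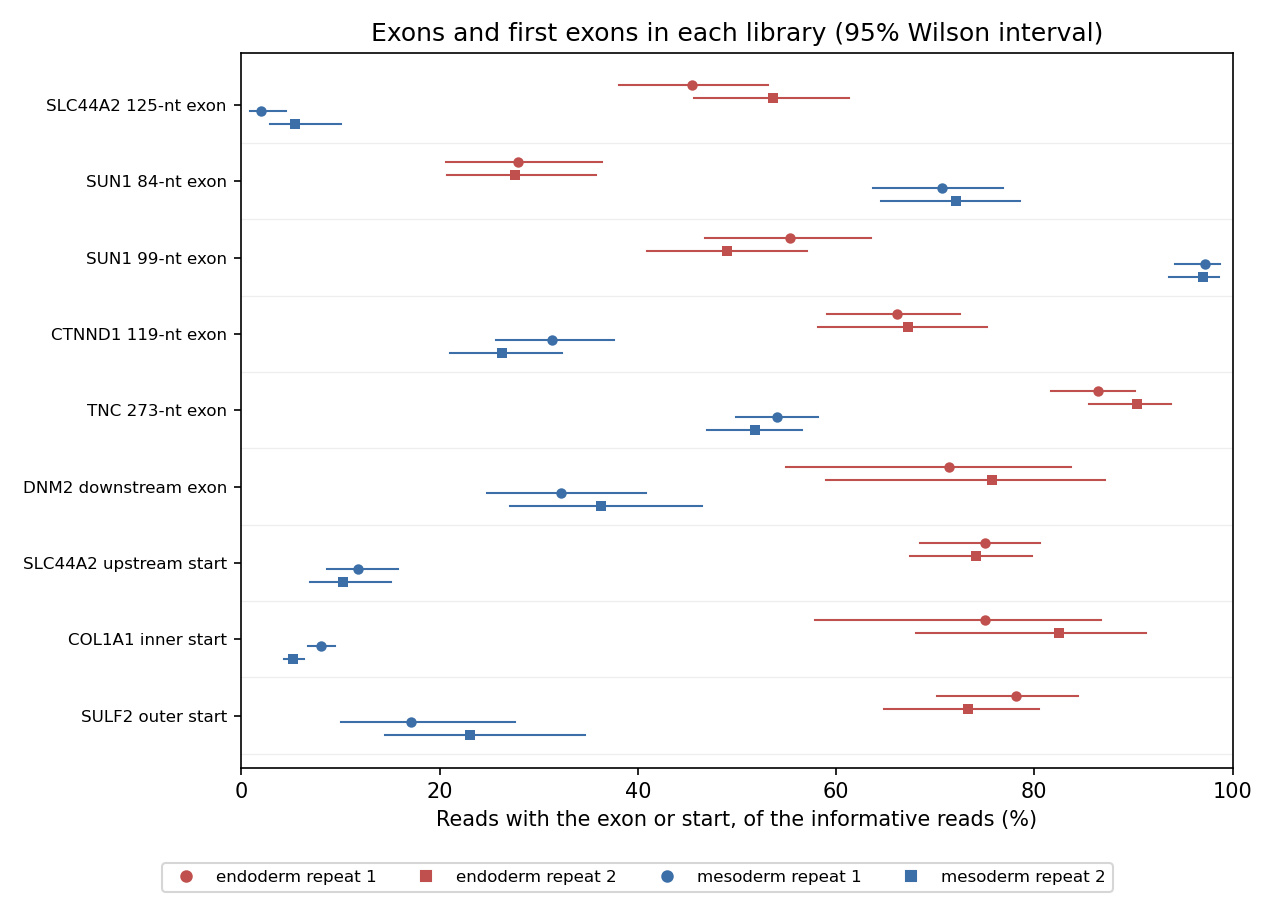
Share of informative reads assigned to assembled transcripts that include an exon or use a start (horizontal, percent), for 9 events in 7 genes. Each library has 1 marker, with endoderm in red and mesoderm in blue. Bars are the 95% Wilson interval, which covers counting error only. In each event both endoderm libraries lie on the same side of both mesoderm libraries, and the intervals of DNM2 are the widest among the exons shown.

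In COL1A1, PLEKHG4B, SUN1 and TPM1 the shares moved toward shorter transcripts in endoderm, and in SULF2, TNC and SEPTIN9 toward longer ones. The mean length of the assembled transcripts that reads were assigned to was lower in endoderm, but that mean is itself made up of such shares. The part of that difference in the results was tested only by removing a length trend. The transcripts favoured in endoderm were 3812 and 3906 nt in SUN1 and 1624 and 1077 nt in TPM1, against 4401 and 4397 nt and 1741 and 1807 nt for those favoured in mesoderm. In SULF2 they were longer, 4238 and 3901 nt against 3808 and 3725 nt. The same order held in TNC (8500 and 6184 nt against 5638 and 5386 nt) and SEPTIN9 (3733 and 3724 nt against 3195 and 3260 nt). COL1A1 began at an inner start in 75.0% (24 of 32) and 82.5% (33 of 40) of the endoderm reads and in 8.01% (124 of 1548) and 5.21% (98 of 1880) of the mesoderm reads (adjusted p 1.76e-07). These counts too equal those of a single assembled transcript that matches no reference transcript. PLEKHG4B, a guanine nucleotide exchange factor, was read in endoderm mainly as a transcript of 2750 nt, with 78.8% and 88.9% of its reads against 33.7% and 25.5% in mesoderm (adjusted p 9.04e-08). That transcript matches no reference transcript. Its transcript of 12591 nt took 1.52% and 0.79% in endoderm and 23.9% and 33.6% in mesoderm. With a length trend removed all 15 genes followed for transcript choice kept their call, while the number of called genes rose from 259 to 814. For transcript choice TRO, a MAGE-family gene with 14 tested transcripts, was called (adjusted p 2.23e-07), but its adjusted p was 0.998 when only reference transcripts were kept.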

How the data were processed

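Polyadenylated RNA was read on the PacBio Sequel II. The authors aligned and assembled reads with minimap2 and StringTie on GRCh38 (hg38), per the submitters' processing notes; the counter and its settings are not given in the sources used here. The deposited table holds raw counts per transcript of 1 combined assembly. The deposited endoderm columns are handled under the unit expected counts for a technical reason, and their values are whole and were not rounded.

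Counts of transcripts with a gene name were summed per gene ID. Endoderm was tested against mesoderm with edgeR 4.0.16 (R 4.3.3): TMM scaling, filterByExpr with a minimum count of 10, 1 quasi-likelihood fit over all 8 libraries, Benjamini-Hochberg adjustment over all features and a threshold of 0.05. Transcript choice used diffSpliceDGE. With 2 libraries against 2, exact permutation cannot pass 0.05. Against groups at 0 counts, folds are lower bounds against 3 counts in the library with the larger limit. With 1 to 3 counts, they are ratios of pooled CPM with 95% exact conditional binomial intervals. SE is of the log2 fold change.

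Named genes are the 12 with the largest change in each direction (10 CPM or more in both libraries of the higher group), the 4 markers, and listed genes chosen by size of change, by link to a culture factor or as defining genes that did not pass. For transcripts, they are the 3 without a reference gene with the largest change in each direction. For transcript choice, they are the 8 smallest p and the called splice targets. The members and lists were chosen with earlier results of these data known. DESeq2 1.42.0 was an alternative, and library totals alone were added after seeing the data. On simulated data with 200 changed features, 79% of 4-fold changed genes (9463 genes) and 67% of 4-fold changed transcripts (9780 transcripts) were recovered. Of the calls 5.95% and 6.94% were false, and 0% of 2-fold changes were recovered. The real data had 47.3% of genes called, a far larger share, so these rates do not carry over. For transcript choice, 100% of exchanges between transcripts at least 4-fold apart were recovered (1884 genes), with 6.54% of calls false. Figures were drawn with matplotlib 3.10.9. Some results that met these rules are not reported here.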

Additional observations from a re-analysis of the deposited data

How the results depend on the processing

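The 4976 called genes became 3279 to 3646 when 1 library was left out, and the 5692 called transcripts 3609 to 4168, or 3409 with DESeq2's Wald test. A group with 1 library left is assumed to vary like the others. The 259 genes called for transcript choice became 78 to 93 when 1 library was left out, 814 with a length trend removed and 737 with that trend removed and the replicate block together. Of the 259, 254 were also called with the length trend removed. With the 4 libraries fitted alone 5512 genes were called at gene level, of 8398 tested, and 377 for transcript choice, of 1595 tested. The cause of these shifts was not tested.

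The labels do not say whether same-numbered libraries were made together. Deviations of same-numbered libraries from their group means correlated at -0.034 between endoderm and mesoderm, and at -0.034 to 0.135 over the 6 pairs of groups. Such correlations cannot show whether the libraries were paired. With the replicate block 4842 genes, 5430 transcripts and 219 genes for transcript choice were called.

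Of 214 called genes named or listed, 161 kept their call in every alternative, 0 changed direction and 45 lost the call without at least 1 of the 4 libraries. Calls were lost for 28 with DESeq2's Wald test, 20 with a length trend removed and 15 with library totals alone. Of the genes that were not called, KRT18 ranged from -0.230 to 0.031 when 1 library was left out, changing sign without endoderm repeat 1, and SMAD2 changed sign with library totals alone (-0.080). In simulated data with 200 changed genes, 2-fold changes were not recovered, but 4976 genes were called in the real data. That result therefore sets no limit on 2-fold changes here.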
